A study of Mus musculus with 12 samples.

Results

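Genes of mitochondrial complex I were examined in the outer kidney cortex of HIF2aM3-transgenic and wild-type mice. The members were all rows of the deposited table whose Ensembl gene ID carries a symbol starting with Nduf, leaving out Ndufa4l2 and pseudogene symbols. This gave 48 of 27412 genes, of which 40 have the symbol of a structural subunit (Ndufa, Ndufb, Ndufc, Ndufs and Ndufv) and 8 that of an assembly factor (Ndufaf). The HIF2aM3 animals were male and carried HIF2αM3, a mutant form of the hypoxia-inducible transcription factor HIF2α, under a γ-glutamyl transferase (GGT) promoter. The WT animals were wild-type C57BL/6 males, and the labels give C57BL/6 as the strain of both groups. None was treated, and their ages were not stated. The GGT promoter is active in the proximal tubule, whereas the RNA came from a whole slice of outer cortex, so the other cells of the cortex were measured with the transgenic ones. The names of all HIF2aM3 animals begin with 17, and the labels do not say whether this marks a single transgenic line.

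Each genotype had 3 animals (HIF2aM3 17-51, 17-53 and 17-56; WT 1, 2 and 3), and both kidneys of each were sequenced, giving 12 libraries. The animal was the replicate, with the counts of its kidneys summed. The p-values thus set the genotype difference against the spread between animals, which edgeR estimates in part from all genes together. Kidney 2 of HIF2aM3 17-51 had the lowest total, 4161829 counts, and the other 11 libraries held 24032148 to 43499743. Epas1, the gene of HIF2α, had 267 ± 16.7 CPM (counts scaled to library size) in HIF2aM3 animals and 204 ± 30.9 CPM in WT animals (SD, n = 3 each), which did not pass the test (edgeR adjusted p = 0.0881). Whether transcripts of the HIF2αM3 transgene were counted as Epas1 was not tested. Hnf4a, Lrp2 and the other 14 proximal tubule markers were all detected. Their summed level was 27750 to 29678 CPM in HIF2aM3 animals and 28440 to 30553 CPM in WT animals.

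Complex I, or NADH:ubiquinone oxidoreductase, is the entry point of electrons from NADH into the respiratory chain, and it pumps protons across the inner mitochondrial membrane. A peripheral arm in the matrix holds the N module, which oxidises NADH, and the Q module, which reduces ubiquinone. The membrane arm holds the proton pumps, whose core subunits are encoded by the mitochondrial genome, while all members described here are nuclear genes. Assembly factors help to build the complex and are not part of the finished enzyme. The proximal tubule depends on mitochondrial respiration for solute transport, and the hypoxia response is known to restrain respiration in many cell types.

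Structural subunit genes were slightly lower in HIF2aM3 cortex as a group, and few of them passed the test on their own. Of the 40, 39 had enough reads to be tested, and the fitted log2 fold change of HIF2aM3 over WT was negative for all 39 (36 to 39 when an animal was left out and 37 with library size alone as the scale), against 49.1% of the 19564 genes tested. The median was -0.18, or -11.6%, against 0.0049 over all genes tested. Values ran from -0.35 for Ndufb4 to -0.014 for Ndufv3. Ndufb4 had few reads, at 2.65 ± 0.429 CPM in HIF2aM3 animals and 3.40 ± 0.548 CPM in WT animals. Its animals overlapped (edgeR adjusted p = 0.249), and 37.0% of its 50-base stretches also occur in other genes' transcripts. With edgeR's quasi-likelihood test, adjusted over all genes at 0.05, 4 structural subunit genes fell and 0 rose, and DESeq2 called 11 lower. Of all genes tested, 1.82% fell and 1.93% rose at this threshold, 3.75% in all. At an unadjusted p under 0.05, 22 of the 39 were lower and 0 were higher, against 12.8% and 12.2% of all genes tested.

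The animals of the genotypes did not overlap for 26 of the 39 structural subunit genes, with HIF2aM3 lower each time, against 16.5% of all genes tested. For 16 of the 39 all 6 HIF2aM3 libraries lay below all 6 WT libraries, against 6.8% of all genes tested. Among the 35 that did not pass the test, 22 still had HIF2aM3 animals entirely below WT animals. The remaining structural member, Ndufb4c, was not tested because of its low counts, and it was listed at a mean of 0.443 RPKM (reads scaled for gene length and library total) in HIF2aM3 animals and 0.401 RPKM in WT animals. Members share libraries and may vary together between animals, so their number does not multiply the 6 animals. In the authors' deposited table, 37 of the 40 structural subunit genes had a negative log2 fold change. A q-value under 0.05 was listed for 19 of the 40, all of them lower, against 12.6% of all rows in either direction. The deposited q-values compare libraries, so kidneys of an animal count as independent. Their number is therefore not comparable with that from edgeR, where the animal was the replicate.

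**Figure D1:**
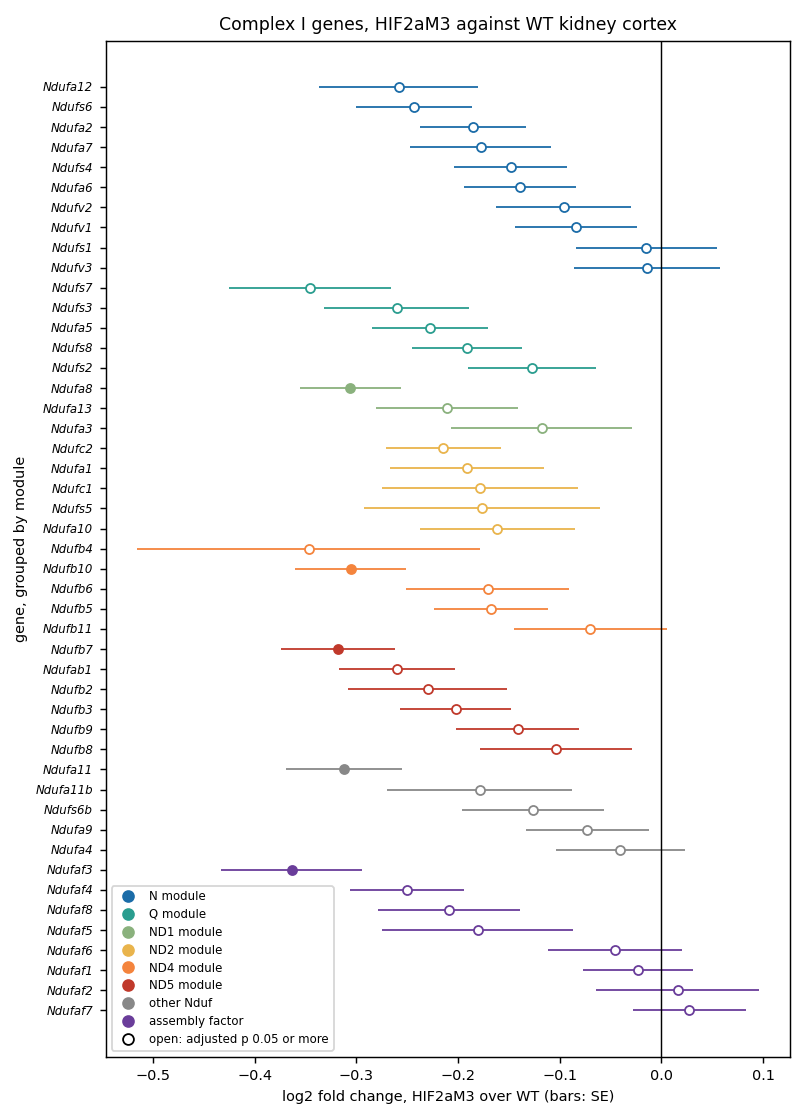
Log2 fold change of HIF2aM3 over WT animals (x axis) for each tested complex I member (y axis), with bars of 1 SE from edgeR, grouped by module (colour). Filled circles have an adjusted p under 0.05, and all 39 structural subunit genes lie left of 0, with a median of -0.18.

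The 4 structural subunit genes that fell were Ndufa8, Ndufb7, Ndufb10 and Ndufa11. Ndufa8 encodes an accessory subunit on the intermembrane-space side of the membrane arm. Its level was 98.1, 96.6 and 92.5 CPM in HIF2aM3 animals 17-51, 17-53 and 17-56, against 118, 116 and 121 CPM in WT animals 1, 2 and 3. The animals of the genotypes were clearly apart, and the log2 fold change was -0.31 ± 0.050 (SE; edgeR adjusted p = 0.0279). Ndufb7, an accessory subunit gene of the distal membrane arm, had 55.1, 52.9 and 50.6 CPM in the HIF2aM3 animals and 62.8, 68.1 and 66.6 CPM in the WT animals. The highest HIF2aM3 animal stood below the lowest WT animal, with a log2 fold change of -0.32 ± 0.06 (edgeR adjusted p = 0.0332). Ndufb10, also of the membrane arm, had 109.8, 108.2 and 102.1 CPM in the HIF2aM3 animals and 127.4, 136.0 and 132.2 CPM in the WT animals. Again no HIF2aM3 animal reached a WT animal, and the log2 fold change was -0.31 ± 0.05 (edgeR adjusted p = 0.0338).

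Ndufa11 encodes a membrane-arm subunit that lies near the contact with complex III in respiratory supercomplexes. It had 38.5, 40.3 and 36.0 CPM in the HIF2aM3 animals, against 46.4, 47.5 and 48.7 CPM in the WT animals, without overlap. The log2 fold change was -0.31 ± 0.06 (edgeR adjusted p = 0.0351). Ndufa11 shares exon sequence with Vmac on the opposite strand, and the use of strand in counting was not stated, so reads of the overlap cannot be told apart. Vmac itself had 24.6 ± 0.699 CPM in HIF2aM3 animals and 23.7 ± 2.48 CPM in WT animals (edgeR adjusted p = 0.728). Ndufa8, Ndufb7 and Ndufb10 overlap no exon of another gene in the table and share no stretch of 50 bases with another gene's transcripts.

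Ndufa8, Ndufb7, Ndufb10 and Ndufs5 encode complex I subunits with paired cysteines, which are oxidised to disulfides during import into the intermembrane space. Of these 4, 3 fell, against 4 of the 39 structural subunit genes tested and 1.82% of all genes tested. The median log2 fold change of the 4 was -0.31. The exception was Ndufs5, at 3.72 ± 0.192 CPM in HIF2aM3 animals and 4.19 ± 0.464 CPM in WT animals, with overlapping animals (edgeR adjusted p = 0.383). Ndufs5 has few reads, and 31.1% of its 50-base stretches also occur in another gene's transcripts. With GC content and length trends removed, 1 of the 4, Ndufb7, fell, and their median was -0.22. This list, like the others, was chosen with earlier results of these data known. Chchd4, the import receptor that oxidises such proteins, was looked up after these values were seen. It had 39.04 ± 0.709 CPM in HIF2aM3 animals and 43.2 ± 3.20 CPM in WT animals, a difference that did not pass the test (log2 fold change -0.14 ± 0.06, edgeR adjusted p = 0.211).

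**Figure D2:**
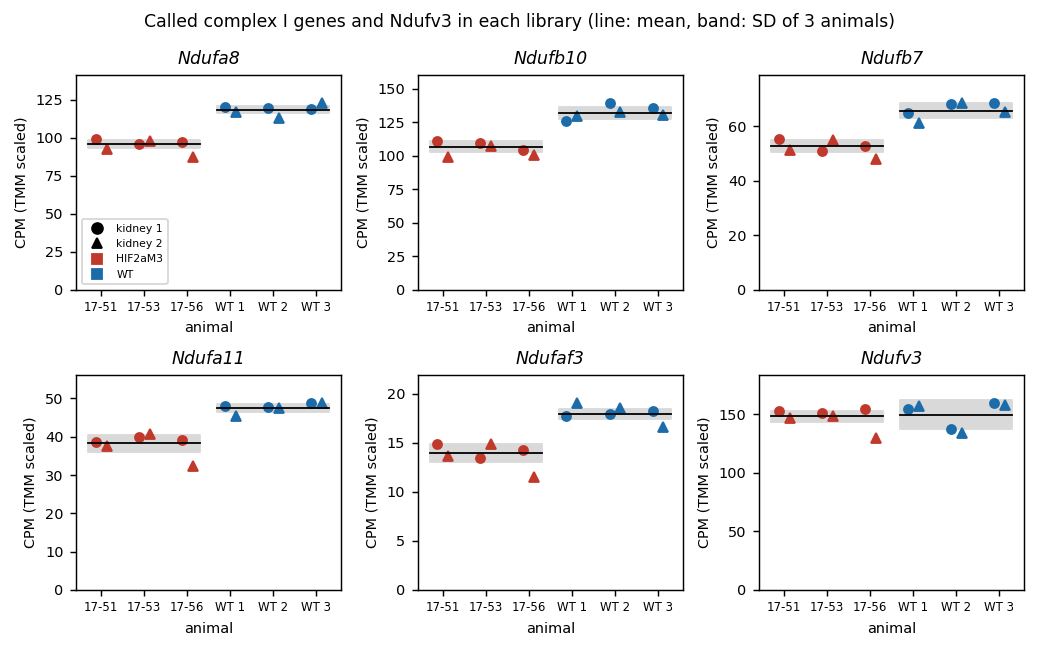
CPM (y axis) in each of the 12 libraries, by animal with HIF2aM3 left and WT right (x axis), for the 5 members that fell and for Ndufv3. Each symbol is 1 kidney, lines and bands are the mean and SD of 3 animals, and only for Ndufv3 do the libraries of the genotypes overlap.

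Promoters are shown for the 3 subunit genes that fell and whose reads can be assigned without overlap, and for Ndufv3, the structural member with the smallest change. Each line gives the 250 bases before the RefSeq start, 5′ to 3′ on the gene's strand, from the RefSeq promoter table on GRCm38.p6. Capitals mark matches on either strand to GCATGCGC (core of the nuclear respiratory factor 1 motif), CCGGAA (core of ETS-family motifs) or AANATGGC (YY1 motif).
Ndufa8, chr2:36049339-36049588, minus strand: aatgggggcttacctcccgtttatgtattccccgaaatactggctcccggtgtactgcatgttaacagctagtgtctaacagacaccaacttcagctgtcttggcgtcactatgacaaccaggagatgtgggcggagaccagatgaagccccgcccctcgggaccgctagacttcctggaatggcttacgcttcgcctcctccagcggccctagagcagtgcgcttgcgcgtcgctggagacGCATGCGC
Ndufb7, chr8:83566508-83566757, plus strand: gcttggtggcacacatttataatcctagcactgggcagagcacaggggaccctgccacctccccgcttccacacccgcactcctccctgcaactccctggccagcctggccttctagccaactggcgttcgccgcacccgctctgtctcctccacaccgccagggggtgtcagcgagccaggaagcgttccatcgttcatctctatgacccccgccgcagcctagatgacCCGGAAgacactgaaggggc
Ndufb10, chr17:24724424-24724673, minus strand: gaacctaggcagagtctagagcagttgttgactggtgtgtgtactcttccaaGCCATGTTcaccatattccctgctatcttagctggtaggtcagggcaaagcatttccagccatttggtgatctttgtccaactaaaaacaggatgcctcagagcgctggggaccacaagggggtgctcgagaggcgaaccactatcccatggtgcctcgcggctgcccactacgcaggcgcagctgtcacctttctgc
Ndufv3, chr17:31519865-31520114, plus strand: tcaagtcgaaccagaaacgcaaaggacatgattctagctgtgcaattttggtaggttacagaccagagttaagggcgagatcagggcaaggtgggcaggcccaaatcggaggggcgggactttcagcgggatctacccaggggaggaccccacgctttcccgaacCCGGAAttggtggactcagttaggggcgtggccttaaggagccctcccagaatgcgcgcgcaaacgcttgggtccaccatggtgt

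Each of these 4 windows holds a single match to these, namely GCATGCGC directly before the start of Ndufa8, CCGGAA in Ndufb7 and in Ndufv3, and AANATGGC on the opposite strand in Ndufb10. Windows of this kind were found for 33 of the structural subunit genes. GCATGCGC was in 3 of the 33 (9.09%), against 4.0% of the promoters of 12088 tested genes, and CCGGAA in 8 (24.2%), against 20.2%. AANATGGC was in 4 (12.1%), against 4.22%. The hypoxia response element core, ACGTG or GCGTG on either strand, was in 11 (33.3%), against 53.3%, and CCAAT in 10 (30.3%), against 35.7%. These are counts of letters in a window, and GCATGCGC was chosen after the sequences had been seen.

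The 6 structural subunit genes next in order of p had HIF2aM3 animals entirely below WT animals but did not pass the test. Ndufab1, the mitochondrial acyl carrier protein, had 31.5, 31.0 and 28.4 CPM in HIF2aM3 animals, against 36.8, 35.5 and 36.6 CPM in WT animals (edgeR adjusted p = 0.0513). Ndufs7, which encodes the Q-module subunit that holds the last iron-sulfur cluster before ubiquinone, had 66.0, 61.7 and 53.8 CPM, against 75.2, 80.7 and 74.5 CPM in WT (edgeR adjusted p = 0.0588). Its log2 fold change of -0.35 ± 0.08 was close in size to that of Ndufb4, and it varied more between HIF2aM3 animals than the genes that passed. Ndufs6, an N-module subunit gene, had 35.2, 35.5 and 32.8 CPM in HIF2aM3 animals, against 39.2, 40.5 and 42.8 CPM in WT animals (edgeR adjusted p = 0.0604). The other 3 were Ndufa5 of the Q module, Ndufc2 of the membrane arm and Ndufb3 of the distal membrane arm, with log2 fold changes of -0.23 ± 0.06, -0.21 ± 0.06 and -0.20 ± 0.05. Their edgeR adjusted p-values were 0.0691, 0.0757 and 0.0802.

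All modules of the complex had negative medians, and the differences between modules were not tested. The Q module, with 5 genes, had a median log2 fold change of -0.23. Its HIF2aM3 animals lay below the WT animals for all 5, against 16.5% of all genes tested. Ndufa9, Ndufa11, Ndufa4, Ndufa11b and Ndufs6b were placed in no module. Ndufa9 had overlapping animals and a log2 fold change of -0.073 ± 0.06 (edgeR adjusted p = 0.493). The ND5 module had a median of -0.22 over 6 genes, of which Ndufb7 fell. The ND1 module stood at -0.21 over 3 genes, of which Ndufa8 fell, and the ND2 module at -0.18 over 5 genes. The ND4 module had a median of -0.17 over 5 genes, of which Ndufb10 fell, and the N module -0.14 over 10 genes. The 7 conserved core subunits, among them the carriers of the flavin and iron-sulfur clusters, had a median of -0.13. None of them passed in edgeR, 3 had an unadjusted p under 0.05, and DESeq2 called 2 lower. Of all genes tested, 12.8% were lower and 12.2% higher at an unadjusted p under 0.05, and DESeq2 called 10.4% in either direction. The Q module summed to 463 to 501 CPM in HIF2aM3 animals and 536 to 569 CPM in WT animals, whereas the N module summed to 1119 to 1150 CPM in HIF2aM3 animals and 1157 to 1272 CPM in WT animals. With GC content and length trends removed, the ND1 median was -0.075.

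The smallest changes were found among subunits of the NADH-oxidising N module and in Ndufa4. Ndufs1 encodes the largest core subunit, and it had 281, 274.9 and 281 CPM in HIF2aM3 animals, against 275.2, 264 and 307 CPM in WT animals. The WT animals spanned the HIF2aM3 animals (log2 fold change -0.015 ± 0.07, edgeR adjusted p = 0.918). Ndufv3, a small accessory subunit next to the flavin site, had 152, 149.6 and 143 CPM in HIF2aM3 animals and 155, 135 and 158 CPM in WT animals (log2 fold change -0.014 ± 0.07, edgeR adjusted p = 0.926). For both, WT animals varied more than HIF2aM3 animals. Ndufa4, whose product was first assigned to complex I and is now placed in complex IV, had 153 ± 3.52 CPM in HIF2aM3 animals and 157 ± 10.8 CPM in WT animals (log2 fold change -0.040 ± 0.06, edgeR adjusted p = 0.732). Ndufa4l2, a paralogue induced by hypoxia in many cells and not counted among the members, had 4.44 ± 1.07 CPM in HIF2aM3 animals and 2.73 ± 0.619 CPM in WT animals. This difference did not pass the test (log2 fold change 0.69 ± 0.23, edgeR adjusted p = 0.123).

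**Figure D3:**
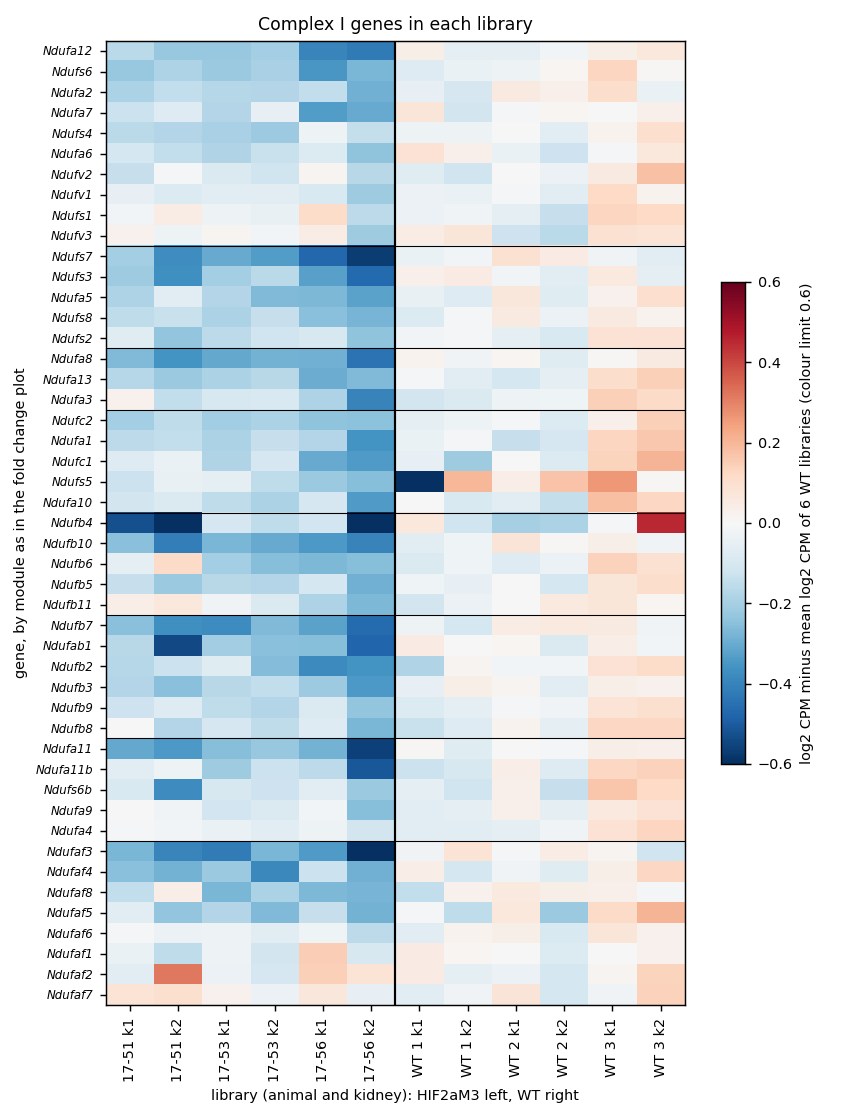
Log2 CPM of each tested member (y axis) in each of the 12 libraries (x axis, HIF2aM3 left of WT), less its mean over the 6 WT libraries, on a colour scale that ends at 0.6 in either direction. The HIF2aM3 columns are mostly blue (lower), and kidney 2 of 17-56 had the lowest structural sum, 3120 CPM.

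On the deposited RPKM scale Ndufa4 and Ndufb9 stood highest. Ndufb9, a membrane-arm accessory subunit gene, was at 279 RPKM in HIF2aM3 and 301 RPKM in WT animals, and its log2 fold change from counts was -0.14 ± 0.06 (edgeR adjusted p = 0.200). Ndufa4 was at 284 RPKM in HIF2aM3 and 286 RPKM in WT animals. The deposited RPKM imply gene lengths over 2 times the longest annotated transcript for 20 of the 48 members, so the order of levels between genes depends on the length used. Across the 39 structural subunit genes, Spearman's rho between log2 fold change and mean CPM was 0.54, so lower-expressed members tended to have larger falls. It was -0.30 with GC content and 0.15 with transcript length. These are descriptions over genes that share the same libraries. Of the members, 8 share over 25% of their 50-base stretches with other genes and 14 overlap a gene of the table in exons. The 14 tested structural subunit genes with no shared 50-base stretch and no such overlap were all negative, with a median of -0.19.

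Of the 8 assembly factor genes, 6 had negative log2 fold changes, with a median of -0.11. Ndufaf3 was the only one to pass the test, against 3.75% of all genes tested. For 3 of the 8, HIF2aM3 animals lay below all WT animals, against 16.5% of all genes tested. Ndufaf3 acts with Ndufaf4 in early assembly of the Q module. It had 14.7, 14.1 and 13.0 CPM in HIF2aM3 animals and 18.3, 18.1 and 17.3 CPM in WT animals, a log2 fold change of -0.36 ± 0.07 (edgeR adjusted p = 0.0401). The gene overlaps exons of Impdh2 on the opposite strand, and Impdh2 was counted at 1.21 ± 0.155 CPM in HIF2aM3 animals and 1.05 ± 0.0913 CPM in WT animals. Ndufaf4 had 54.9, 53.1 and 56.9 CPM in HIF2aM3 animals and 63.7, 63.3 and 69.1 CPM in WT animals, also without overlap, but did not pass (log2 fold change -0.25 ± 0.06, edgeR adjusted p = 0.0550).

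Ndufaf8, a partner of Ndufaf5 in human cells, had 13.8, 12.7 and 12.3 CPM in HIF2aM3 animals and 14.3, 15.4 and 15.01 CPM in WT animals, and did not pass (edgeR adjusted p = 0.125). Ndufaf5, a hydroxylase that acts on Ndufs7 in human cells, had a log2 fold change of -0.18 ± 0.09 with overlapping animals (edgeR adjusted p = 0.276). The other 4 lay near 0, with log2 fold changes of -0.046 for Ndufaf6, -0.023 for Ndufaf1, 0.016 for Ndufaf2 and 0.028 for Ndufaf7. Their edgeR adjusted p-values were 0.705, 0.829, 0.925 and 0.796. Of the sequence of Ndufaf2, 80.9% of 50-base stretches also occur in another gene, so its count is uncertain. Summed over the 8 genes, assembly factors stood at 171, 164 and 170.2 CPM in HIF2aM3 animals and 183, 183 and 193 CPM in WT animals.

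Complex I genes without an Nduf symbol were taken from fixed lists. Of 16 further assembly factors, 15 were tested and 13 had negative log2 fold changes, with a median of -0.080. None passed the test in edgeR, 5 were at an unadjusted p under 0.05, and DESeq2 called 1 lower. Of all genes tested, 12.8% were lower and 12.2% higher at an unadjusted p under 0.05, and DESeq2 called 10.4% in either direction. The smallest p was that of Ecsit, a factor of the assembly complex for the membrane arm, at 69.6 ± 2.44 CPM in HIF2aM3 animals and 78.8 ± 1.48 CPM in WT animals (edgeR adjusted p = 0.0825). Of the 7 subunits encoded by the mitochondrial genome, 5 were tested, since mt-Nd3 and mt-Nd4l had at most 2 reads in any library. None of the 5 passed in edgeR, 0 were at an unadjusted p under 0.05 and DESeq2 called 0. Their median log2 fold change was -0.0030, and their summed level overlapped between HIF2aM3 animals (62723 to 64618 CPM) and WT animals (61172 to 70881 CPM). With GC content and length trends removed, all 5 were negative, with a median of -0.074 and 0 called. The mitochondrial genome took 9.81% to 11.5% of counts in HIF2aM3 libraries and 10.1% to 11.8% in WT libraries.

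Genes that govern mitochondrial gene expression were mixed, with 8 negative and 6 positive log2 fold changes. Of 14 tested, 2 fell, against 1.82% of all genes tested. They were Esrra, the nuclear receptor ERRα that drives respiratory chain genes, and Pprc1, a coactivator of the PGC-1 family. Esrra was at 119 ± 1.70 CPM in HIF2aM3 animals and 149.8 ± 1.60 CPM in WT animals, a log2 fold change of -0.34 ± 0.05 (edgeR adjusted p = 0.0211). Pprc1 was at 15.4 ± 1.63 CPM in HIF2aM3 animals and 21.1 ± 1.09 CPM in WT animals (log2 fold change -0.44 ± 0.09, edgeR adjusted p = 0.0428). Ppargc1a, the coactivator PGC-1α, had a log2 fold change of 0.06 ± 0.05 that did not pass (edgeR adjusted p = 0.515). Over the 14 the median was -0.033. Of 20 mitochondrial genes outside the respiratory chain, 17 were negative, with a median of -0.10. Those that fell were Tomm40 and Timm50, subunits of the protein import channels, and Hspe1, the mitochondrial co-chaperonin, at -0.26 ± 0.05, -0.25 ± 0.05 and -0.31 ± 0.07 (edgeR adjusted p = 0.0412, 0.0467 and 0.0490). Like the complex I members, Esrra, Pprc1, Tomm40, Timm50 and Hspe1 kept their calls without WT 2 and lost them when any other animal was left out. With GC content and length trends removed, Esrra and Hspe1 still passed and the other 3 did not.

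The nuclear subunit genes of complexes II to V, chosen for comparison after their values were seen, had negative log2 fold changes for all 44 tested, with a median of -0.14. None passed in edgeR, 20 were at an unadjusted p under 0.05, and DESeq2 called 8 lower. Their summed level was 10556 to 11080 CPM in HIF2aM3 animals and 11210 to 12270 CPM in WT animals. The difference between complex I and complexes II to V was not tested. Cytosolic ribosomal protein genes, chosen in the same way as short and abundant transcripts, had 29 of 78 negative values and a median of 0.026. With edgeR 0 of these passed, 7 were at an unadjusted p under 0.05, and DESeq2 called 1 higher and 1 lower. Of all genes tested, 12.8% were lower and 12.2% higher at an unadjusted p under 0.05, and DESeq2 called 10.4% in either direction.

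Summed over all structural subunit genes, the level was 3506, 3408 and 3299 CPM in HIF2aM3 animals 17-51, 17-53 and 17-56, against 3646, 3656 and 3982 CPM in WT animals 1, 2 and 3. The libraries of the genotypes did not overlap, with 3120 to 3508 CPM in HIF2aM3 and 3605 to 3994 CPM in WT. The 48 members together took 0.343% to 0.369% of the counts in HIF2aM3 libraries and 0.372% to 0.405% in WT libraries. Kidney 2 of 17-56 was the lowest library. The median log2 difference of kidney 2 from kidney 1 over 47 members was -0.14 in 17-56, and between -0.051 and 0.0059 in the other 5 animals. Without this library and the one of 4161829 counts, 4 structural subunit genes and 1 assembly factor gene still passed.

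**Figure D4:**
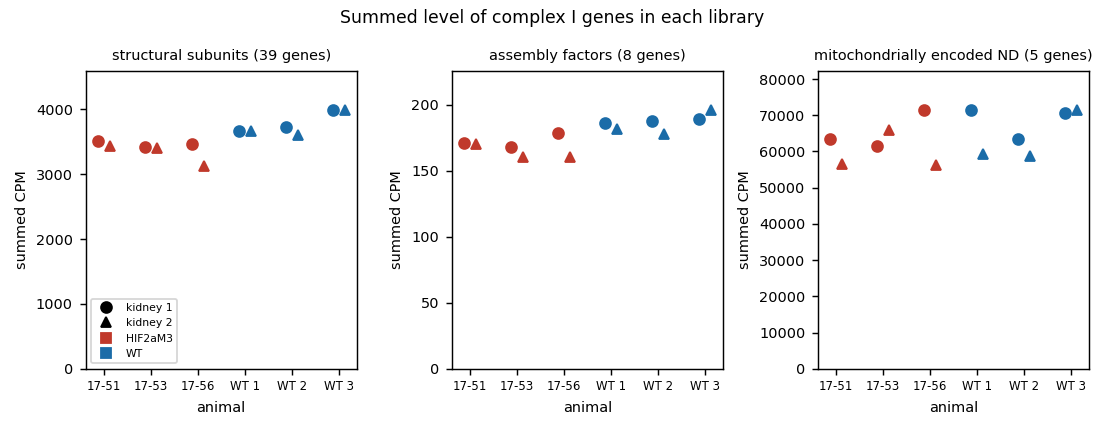
Summed CPM (y axis, from 0) of 39 structural subunit, 8 assembly factor and 5 mitochondrially encoded subunit genes in each library, by animal (x axis, HIF2aM3 left of WT; circles kidney 1, triangles kidney 2). The structural sums do not overlap, at 3120 to 3508 CPM in HIF2aM3 and 3605 to 3994 CPM in WT libraries.

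The slice holds several cell types, and in bulk RNA fewer cells of a type and less RNA per cell cannot be told apart. Over all genes tested, 1.82% fell and 1.93% rose in edgeR. Of 14 collecting duct markers, 5 fell, and the sum of the 14 was 684 to 866 CPM in HIF2aM3 animals and 1039 to 1075 CPM in WT animals. Of 12 markers of the thick ascending limb and distal convoluted tubule, both segments rich in mitochondria, Klk1 and Kcnj10 fell, and the sum was 5783 to 6361 CPM in HIF2aM3 animals and 6662 to 8104 CPM in WT animals. Of 16 proximal tubule markers, Slc5a12 rose and Slc22a6 fell, with overlapping sums. Of 12 endothelial markers 3 rose, with sums of 874 to 898 CPM in HIF2aM3 animals and 584 to 845 CPM in WT animals, and of 12 leukocyte markers Csf1r rose, with sums of 414 to 511 CPM in HIF2aM3 animals and 239.8 to 530 CPM in WT animals. Fibroblast and pericyte markers summed to 371 to 489 CPM in HIF2aM3 animals and 229 to 355 CPM in WT animals, and podocyte markers to 684 to 705 CPM in HIF2aM3 animals and 600.3 to 829 CPM in WT animals. Neither list of 10 had a marker past the test in edgeR. An unadjusted p under 0.05 was found for 5 fibroblast and 1 podocyte markers, and DESeq2 called 3 and 1 higher. Over all genes tested, 12.8% were lower and 12.2% higher at an unadjusted p under 0.05, and DESeq2 called 10.4% in either direction. Of the 13 marker calls, only that of Scnn1a passed in over 2 of the 6 leave-outs, namely in 4, and that of Aqp3 passed in 0. No listed marker was at 0, and the part of these cell types in the complex I values was not tested.

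The calls depended on single animals. All 5 members that fell lost significance when any animal except WT 2 was left out, the adjusted p of Ndufa8 reaching 0.118 at most. The median of the structural subunit genes then ran from -0.22 to -0.13. The number of structural subunit genes that fell was 0 to 5 and that of all genes that passed was 11 to 1549 over the same 6 leave-outs. With the 12 libraries taken as replicates, which counts kidneys of an animal as independent, 23 structural subunit genes fell. With those replicates 26.6% of all genes passed in either direction. Using kidney 1 alone, 4 fell, and using kidney 2 alone, 3 fell. DESeq2 called 11 lower, with 10.4% of all its genes called in either direction, and limma on log2 RPKM called 0. When trends with GC content and transcript length were removed within each animal, 1 structural subunit gene, Ndufb7, remained below the threshold, and the median was -0.17. Of all genes, 480 then passed. In that setting Ndufaf3 lost its call (edgeR adjusted p = 0.0659), and Ndufaf4 passed instead (log2 fold change -0.34, edgeR adjusted p = 0.0266).

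**Figure D5:**
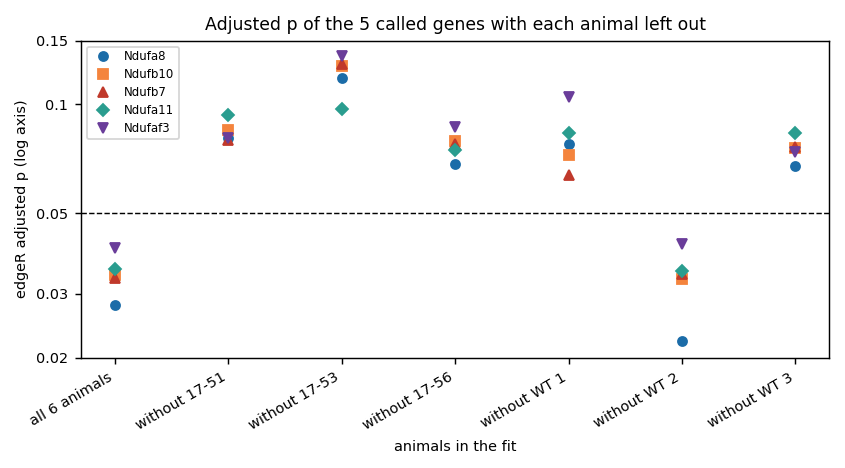
Adjusted p from edgeR (y axis, log scale) of the 5 members that fell, with all 6 animals and with each animal left out (x axis). The dashed line is the threshold of 0.05, below which the 5 lie with all animals and without WT 2.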

How the data were processed

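Total RNA from the outer cortex went into TruSeq libraries, per the labels' protocols. The submitters' processing notes name build mm9, with aligner, counter, annotation release and use of strand not given in the sources used here. Raw counts per gene and library were deposited, per the file headers, beside RPKM values made by the authors. The table also holds a log2 fold change and p-values and q-values made by the authors, printed only where named as deposited. A GENCODE name table matched 24630 of 27412 gene IDs, and the other 2782 held 1.18% of counts.

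Each animal's kidneys were added up, and genotypes were compared two-sided with edgeR 4.0.16 (quasi-likelihood) under R 4.3.3 (filterByExpr, TMM factors, robust estimates), with Benjamini-Hochberg adjustment over 19564 genes at 0.05. SE was taken as the size of the log2 fold change divided by the root of F. CPM are scaled with TMM factors. Alternatives used DESeq2 1.42.0 and limma 3.58.1 on log2 of RPKM plus 0.1 or 5, RLE factors, library size alone, other filters, single kidneys, 12 libraries, trends removed by lowess (span 0.3) and leave-outs. Promoter letters were searched with Python 3.11.15. The edgeR test was tried on simulated data with 50 genes shifted at each of 4 sizes. It recovered 2% of them at 0.25 on the log2 scale, 50% at 0.5, and 100% at 1 and at 2, with 5 false calls. Every gene was simulated with a dispersion (spread between animals) of 0.013, so these rates need not be those of complex I genes. Small shifts could go uncalled, and not passing the test does not show that a gene was unchanged.

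Named genes were all members past the threshold, the 6 structural genes next by p, the 3 with changes most opposite to the median, those highest and lowest in RPKM, all assembly factors, Ndufa4, Ndufa4l2, and from other lists those past the threshold or the smallest p. The members and lists were chosen with earlier results of these data known.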

Additional observations from a re-analysis of the deposited data

Results flagged for a closer look

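Within the 6 libraries of a genotype, 4 of 50 sets had a library far from the others by Dixon's criterion. Chance alone is expected to give about 1 in 20 of independent sets, and kidneys of an animal are not independent. The summed structural level was 3120 CPM in kidney 2 of HIF2aM3 17-56, against 3404 CPM in the next lowest HIF2aM3 library. In the same library Ndufv3 was at 129 CPM, against 146 CPM in the next lowest, and Ndufaf6 at 10.2 CPM, against 10.9 CPM. In WT, Ndufaf8 was lowest in kidney 1 of WT 1 at 13.5 CPM, with the next lowest library at 14.8 CPM.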

How the results depend on the processing

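The number of structural subunit genes that fell was 4, that of assembly factor genes that passed 1, that of other complex I genes 0 and that of all genes 733. With 12 libraries as replicates these were 23, 3, 6 and 4829. With DESeq2 they were 11, 2, 1 and 2020. Kidney 2 alone gave 0 assembly factor genes and 337 of all genes, and library size alone gave 0 assembly factor genes. Without a filter 7 structural and 2 assembly factor genes passed, and with a mean of at least 1 CPM 2 assembly factor genes. Limma on RPKM plus 0.1 gave 0 structural genes, 0 assembly factor genes and 140 of all genes. On RPKM plus 5 it gave 0, 0 and 67, with medians of -0.11 for structural and -0.019 for assembly factor genes. With GC and length trends removed, 1 structural gene, 1 assembly factor gene (Ndufaf4 in place of Ndufaf3) and 480 of all genes passed. Leaving out each animal in turn gave 0 to 5 structural genes, 0 to 2 assembly factor genes, 0 to 1 other complex I genes and 11 to 1549 of all genes, and an assembly factor median of -0.15 to -0.065.

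Genes near 0 changed sign. Ndufv3 was at 0.033 with kidney 1 alone, 0.0089 with library size alone, 0.0069 and 0.0062 with limma plus 0.1 and plus 5, 0.026 with trends removed and 0.017 without both low libraries, and ran from -0.089 to 0.024 over the leave-outs. Ndufs1 was at 0.019 with kidney 1 alone, 0.0078 with library size alone, 0.022 and 0.019 with limma, and 0.014 without both low libraries, and ran from -0.067 to 0.044. Ndufaf1 was at 0.023 with kidney 1 alone and 0.0081 without both low libraries. Ndufaf7 was at -0.014 with kidney 2 alone and -0.0047 with trends removed, and ran from -0.0070 to 0.053. Ndufaf2 was at -0.0022 without both low libraries and ran from -0.037 to 0.058, and Ndufa4 ran from -0.084 to 0.011. No paired analysis was possible because the genotypes share no replicate numbers. The cause of these changes was not tested. The removal of both low libraries and the comparison lists were chosen after seeing the data.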
